A study of Rattus norvegicus with 24 samples.

Results

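The telomeric part of the rat MHC holds class Ib genes of the RT1-M, RT1-N, RT1-O, RT1-S and RT1-T families. They were followed here in skin explants exposed to syngeneic or allogeneic lymphocytes. The genes were taken from the study's list of MHC genes as those whose symbol begins with RT1-M, RT1-N, RT1-O, RT1-S or RT1-T, with RT-BM1 (RT1-S3) added. This gave 31 genes and 119 probes. Of these, 30 genes with 117 probes were found among the 7250 genes and 8453 probes of the array, and the 2 probes of RT1-S2 were not analysed here. All probes were 60 bases long, 105 of them custom probes and 12 catalog probes.

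The samples were skin explants from the paws of 12 male BN rats aged 15 weeks. An explant of each rat was cultured for 3 days with syngeneic lymphocytes of the BN strain, and another with allogeneic lymphocytes of the PVG strain (RT1c). Both kinds of lymphocytes came from a 7-day mixed lymphocyte reaction with irradiated BN splenocytes, so that the controls also carried added and pre-stimulated cells. Each array compared the 2 samples of a rat in Cy3 and Cy5, and a second array of the same rat had the dyes exchanged, giving 24 arrays on 3 slides of 4 rats each. The RNA of an explant and of the lymphocytes in it was measured together. In such bulk samples fewer cells of a type and less RNA per cell cannot be told apart. The study used the BN sequence of the MHC for the design of the array. How well PVG transcripts bind the probes was not tested, and weaker binding cannot be told apart from less RNA either.

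MHC class I molecules are membrane proteins that pair with beta-2 microglobulin and, in most cases, hold a peptide at the cell surface. The classical class Ia molecules present peptides to cytotoxic T cells. Class Ib molecules are less polymorphic and often have special ligands or a narrow tissue distribution. RT-BM1 is the rat homologue of mouse Qa-1, which presents leader peptides of other class I molecules to CD94/NKG2 receptors of NK cells and T cells. RT1-M3 is the homologue of mouse H2-M3, which presents N-formylated peptides of bacterial or mitochondrial origin. Genes of the M1 and M10 families are known in the mouse from sensory neurons of the vomeronasal organ. For many other members, including the RT1-T24 genes, the ligand is not known, and several are pseudogenes.

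Class Ib genes resemble each other, and the probe sequences show which probes on this array share long identical runs. Similar stretches with mismatches, and binding to transcripts of other genes, were not examined. Joining the probes of a gene that shared at least 30 bases left 87 separate targets among the 117 probes. In addition, 27 probes shared at least 30 bases with a probe for another gene. Of the 22 genes with several probes, 4 (RT1-M3-2, RT1-M5, RT1-M6-1 and RT1-T24-3) had all of their probes on 1 target. The T24 and O probes are shown because their values below are to be read together. Capitals mark the run shared with the partner probe.
RT1-T24-1 probe 1: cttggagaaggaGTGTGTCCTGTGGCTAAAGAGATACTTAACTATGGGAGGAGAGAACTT
RT1-T24-3 probe 5: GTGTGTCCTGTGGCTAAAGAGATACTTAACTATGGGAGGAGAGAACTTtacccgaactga
RT1-O2 probe 2: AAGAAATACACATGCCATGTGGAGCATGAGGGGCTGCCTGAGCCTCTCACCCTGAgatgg
RT1-O3 probe 3: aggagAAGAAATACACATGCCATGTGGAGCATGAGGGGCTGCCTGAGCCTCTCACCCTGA
RT1-O2 probe 4: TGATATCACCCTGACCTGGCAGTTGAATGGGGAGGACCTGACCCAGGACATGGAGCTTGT
RT1-O3 probe 4: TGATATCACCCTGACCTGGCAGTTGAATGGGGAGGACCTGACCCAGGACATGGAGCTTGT
The T24 pair shared 48 bases and the first O pair 55 bases, while the second O pair was identical over all 60 bases. A further pair, probe 5 of RT1-O2 and of RT1-O3, was also identical. The GC content of the 117 probes lay between 35.0% and 55.0% with a median of 45.0%.

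Some arrays stood apart. The log2 ratios of 2 rats over all probes correlated with each other between 0.0998 and 0.823 (median 0.558). Rat 8 was least like the rest, with a median correlation of 0.17 to the other rats although its own 2 arrays correlated at 0.944. The 2 arrays of rat 10 correlated at only 0.133, and the median Cy3 intensity of its array 1 was 6668, against 135.5 to 216.4 on the other arrays. Some values are therefore also given without rat 8 or rat 10. Besides those given below, probe 1 of RT1-O2 (0.18, adjusted p = 0.00506) and probe 2 of RT1-M1-1 (0.055, adjusted p = 0.02537) and of RT1-M1-2 (0.052, adjusted p = 0.02163) were not called over all rats in the probe-wise limma test but were without rat 8. Probe 1 of RT1-N2 (-0.10, adjusted p = 0.03668) and probe 4 of RT1-M3-3 (0.058, adjusted p = 0.04507) were not called over all rats but were without rat 10. Within a dye orientation the lowest correlation of 2 arrays was 0.0055 with the allogeneic sample in Cy5 and 0.088 with it in Cy3. Of the listed markers of keratinocytes, the main cells of the epidermis, 0 of 8 were matched to a probe, so that the tissue was checked only by the fibroblast markers Col1a2 and Pdgfra, both well above background on 24 arrays.

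All log2-fold changes below are allogeneic minus syngeneic by the dyes in the sample labels. This direction is opposite to the direction in which the study describes its regulated genes. The study also measured selected MHC and NKC genes by quantitative real-time PCR in part of these sample pairs. It reports the direction of its arrays for all of them but RT1-CE10. Which direction holds was not tested here. In this text "lower" means a weaker signal for the explant that the labels give PVG lymphocytes. If the labels were exchanged, every sign would turn, and "lower" and "higher" with it, while the sizes, p-values and numbers of calls would stay. In the probe-wise test (limma, adjusted over all probes) 23 of the 117 class Ib probes changed, 18 of them lower and 5 higher. This was 19.7% of the class Ib probes, close to the 17.3% of all probes on the array that changed in either direction. The lower probes made up 15.4% of the class Ib probes, against 8.48% of all probes. With the probes of a gene averaged, 5 of 30 genes changed, all of them lower, which was 16.7% of the genes. Of all 7250 genes 16.2% changed in either direction and 7.54% were lower. The 5 genes were RT-BM1, RT1-T24-4, RT1-T24-3, RT1-T24-1 and RT1-M6-2. At an unadjusted p under 0.05 there were 34 probes and 9 genes. The median log2-fold change was -0.012 over the class Ib probes and -0.015 over the genes, against 0.011 and 0.012 over all probes and genes.

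**Figure D1:**
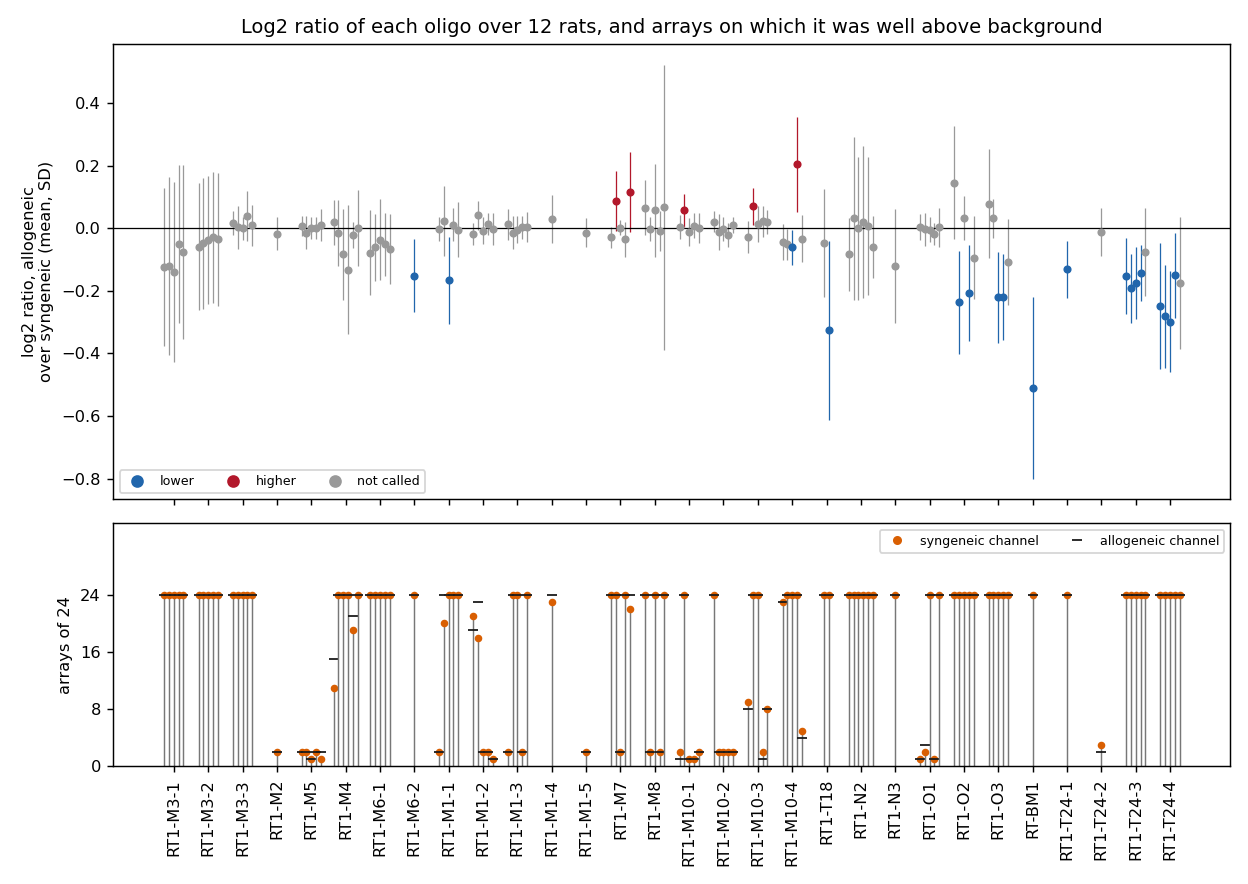
Upper panel: mean log2-fold change (allogeneic over syngeneic) of each of the 117 class Ib probes over 12 rats with its SD, colored by the limma call. Lower panel: number of the 24 arrays on which the probe was well above background in each channel. The single RT-BM1 probe lies lowest (-0.51), followed by probe 2 of RT1-T18 (-0.33) and probe 3 of RT1-T24-4 (-0.30), and probes near 0 arrays lie close to a log2-fold change of 0.

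Whether a class Ib gene could be measured at all differed strongly between the families. A probe was counted as detected on an array when the scanner software marked at least 50% of its spots as well above background. By this measure 77 probes were detected on all 24 arrays in both channels, and 85 probes of 26 genes on at least 12 arrays in a channel. At the other end, 27 probes were detected on fewer than 3 arrays in both channels. They included all 5 probes of RT1-M5, the only probes of RT1-M2 and RT1-M1-5, and 4 of 5 probes each of RT1-M10-1 and RT1-M10-2. Array 1 of rat 10 had all 117 class Ib probes detected in both channels, and array 2 of rat 9 had 108. The other arrays had 79 to 89 in a channel. All 23 called probes were among the 85 detected ones. The undetected probes had log2-fold changes between -0.022 and 0.023, but neither channel gave a level above background for them. By RefSeq's annotation the 17 protein-coding genes gave 12 lower and 0 higher calls over 56 probes. The 11 pseudogenes gave 6 lower and 4 higher calls over 55 probes, and the 2 lncRNA genes 0 lower and 1 higher call over 6 probes. Overlapping probes, such as those of the T24 and O genes, are counted separately here, and the groups were not compared by a test. Of all probes on the array 17.3% were called, 8.48% lower.

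RT-BM1, the Qa-1 homologue, had the lowest log2-fold change of the 30 genes. It was measured by 1 catalog probe, placed by the files at chr20:2820286-2820344 on the plus strand (rat build rn3), and detected on all 24 arrays. The first 30 bases of this probe show which sequence was measured.
RT-BM1 probe 1, first 30 bases: cgacatggtaactcgctgtctgtaactagt
In the allogeneic samples its log2 intensity ranged from 7.95 to 8.90 with a median of 8.31, and in the syngeneic samples from 8.40 to 9.27 with a median of 8.80. The ranges overlap between rats, but within each of the 12 rats the allogeneic sample was the lower in the mean of both arrays. In rat 10 the arrays had opposite signs, with 0.30 on array 1 and -0.38 on array 2. The log2-fold change of the rats lay between -0.95 (rat 8) and -0.04 (rat 10) with a median of -0.53. Its mean was -0.51 ± 0.29 (SD, n = 12), a 1.42-fold lower intensity, with an adjusted p of 0.001054 (limma, over all genes). The means of the 3 slides were -0.40, -0.59 and -0.54. With the allogeneic sample in Cy5 the mean was -0.37 and with it in Cy3 -0.65, so that the sign was the same in both dye orientations.

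The RT1-T24 genes lie next to the S and N genes and are named after mouse H2-T24. RT1-T24-4 was measured by 5 probes with a common target for 4 of them. Probes 1 and 2 share a run of 24 bases with a probe for the class Ia gene RT1-A1, and binding of RT1-A1 transcripts was not tested. The first 30 bases of the RT1-T24-4 probe with the lowest log2-fold change are shown.
RT1-T24-4 probe 3, first 30 bases: gctcctcactactacactgagaataagaat
The log2 intensity of this probe ranged from 14.58 to 15.66 (median 15.42) in the allogeneic samples and from 15.21 to 16.03 (median 15.70) in the syngeneic samples. Averaged over the 5 probes, the log2-fold change of the rats was lowest in rat 10 (-0.61), had a median of -0.20, and was highest in rat 3 (-0.07). All 12 rats were thus below 0, with rat 10 well apart from the others. This rested on array 1 of rat 10, the array with the high Cy3 intensity, which was at -1.03. Its array 2 was at -0.19. The mean was -0.23 ± 0.15 (SD, n = 12; adjusted p = 0.003067), and 4 of the 5 probes passed the probe-wise test, with means from -0.30 to -0.15 over all 5. Probe 5 was not called (-0.18, adjusted p = 0.05544), but it was without rat 8 (-0.20, adjusted p = 0.02159) or without rat 10 (-0.12, adjusted p = 0.01853). Probe 5 was at -0.074 in the Cy5 and -0.28 in the Cy3 orientation. The gene mean was nearly the same in both orientations (-0.23 and -0.23), with array 1 of rat 10 included in the Cy5 value. Without rat 10 the gene mean was -0.20. With the arrays centered on their median in place of loess it was -0.38 (adjusted p = 0.009934). Over all 24 alternatives the adjusted p for RT1-T24-4 was between 0.0001569 and 0.0323.

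As reported, RT1-T24-3 and RT1-T24-1 gave smaller values than RT1-T24-4, of the same sign. Their probes were far dimmer, with syngeneic median log2 intensities of 7.59 to 8.56 and of 7.78. Those of RT1-T24-4 were 14.41 to 16.46. With processed intensities the RT1-T24-3 probes lay between -0.30 and -0.069, the RT1-T24-1 probe at -0.18 and the RT1-T24-4 probes between -0.28 and -0.14. The 5 probes of RT1-T24-3 overlap on 1 target, and the only RT1-T24-1 probe shares 33 to 48 bases with each of them, so that the signals of both genes cannot be told apart. The log2-fold change of RT1-T24-3 was lowest in rat 12 (-0.23), had a median of -0.17 and was highest in rat 10 (0.034). That of RT1-T24-1 was lowest in rat 8 (-0.23), had a median of -0.16 and was highest in rat 4 (0.090). Thus 11 and 10 of the 12 rats were lower, and rat 10 was above 0 for both probe sets. The means were -0.15 ± 0.078 (SD, adjusted p = 0.001175) for RT1-T24-3 and -0.13 ± 0.092 (SD, adjusted p = 0.005425) for RT1-T24-1, over 12 rats each. Probe 5 of RT1-T24-3 did not pass the test (-0.076, adjusted p = 0.2223), whereas probes 1 to 4 did (-0.19 to -0.14). This rested on rat 8, which was at 0.33 for probe 5, while the other rats lay between -0.22 and 0.0085. Without rat 8 its mean was -0.11 and it was called (adjusted p = 0.002238). In the series table that the authors deposited, RT1-T24-3 had a mean of -0.23. RT1-T24-2, which RefSeq lists as a lncRNA gene, was detected on only 2 arrays in the allogeneic and 3 in the syngeneic channel and had a mean of -0.010 ± 0.077 (SD).

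**Figure D2:**
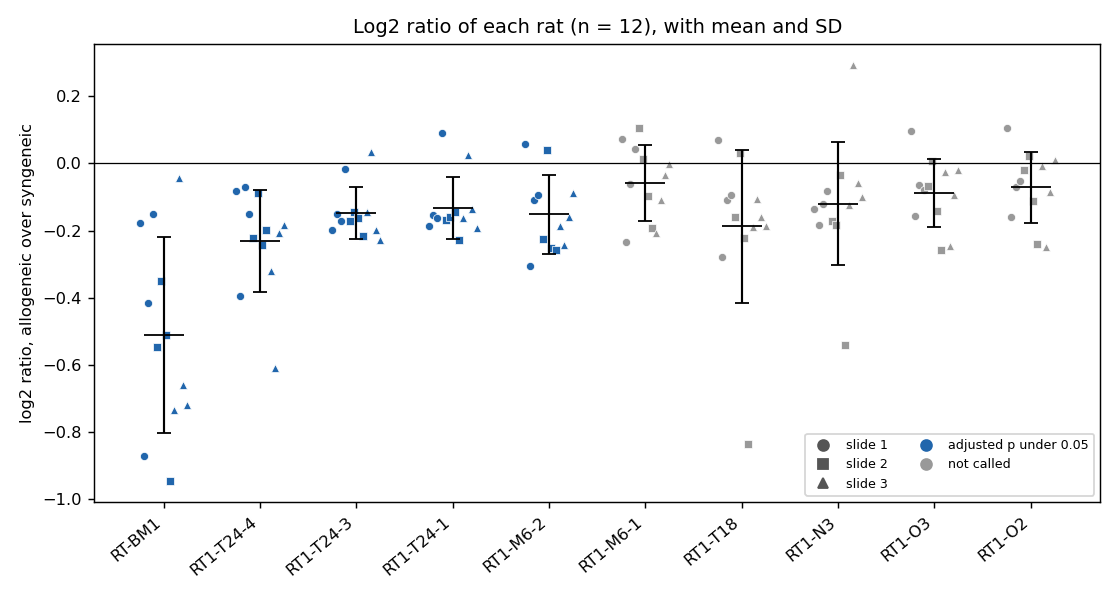
Log2-fold change (allogeneic over syngeneic) of each of the 12 rats for the 5 called genes (blue) and 5 genes that were not called (gray), with marker shape for the slide, and mean and SD in black. All 12 rats lie below 0 for RT-BM1 and RT1-T24-4, and rat 8 lies alone at the bottom for RT1-T18 (-0.84) and RT1-N3 (-0.54).

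RT1-M6-2, a member of the M family related to mouse H2-M6, was the only M gene with a changed mean. Its catalog probe lies at chr20:1677337-1677396 on the plus strand (rn3).
RT1-M6-2 probe 1: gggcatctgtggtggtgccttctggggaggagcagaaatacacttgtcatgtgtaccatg
Its log2 intensity ranged from 14.38 to 14.79 (median 14.60) in the allogeneic and from 14.36 to 15.03 (median 14.74) in the syngeneic samples. The 5 probes of RT1-M6-1 were far dimmer, with medians of 7.38 to 8.31 in the syngeneic samples. Whether the RT1-M6-2 probe also binds transcripts of other class I genes was not tested. The log2-fold change was lowest in rat 2 (-0.31), had a median of -0.17 and was highest in rat 1 (0.059), with 10 of 12 rats lower. The mean was -0.15 ± 0.12 (SD, n = 12; adjusted p = 0.007512). This value depended on the dye orientation. It was -0.24 with the allogeneic sample in Cy5 and -0.065 with it in Cy3, where it did not pass the test (adjusted p = 0.2738, the highest of its 24 alternatives, of which the lowest was 0.002405). With median centering it was -0.28. The neighboring RT1-M6-1, whose 5 probes overlap on 1 target, had a mean of -0.058 ± 0.11 (SD) and an adjusted p of 0.254. Its values were 0.0010 in the Cy5 and -0.12 in the Cy3 orientation, so that the M6 genes differed between the dye orientations in opposite ways.

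RT1-O2 and RT1-O3 are pseudogenes in RefSeq, and their probes pair up. Probe 2 of RT1-O2 and probe 3 of RT1-O3, which share 55 bases, had mean log2-fold changes of -0.24 ± 0.16 and -0.22 ± 0.15 (SD, n = 12; adjusted p = 0.003415 and 0.002709). The identical probes 4 gave -0.21 for RT1-O2 and -0.22 for RT1-O3, both called. The identical probes 5 gave -0.093 and -0.11, neither called. The same sequence at other places of the array thus returned values that differed by 0.014 and 0.015. The remaining probes of both genes were not called and had means between 0.033 and 0.15. These were far dimmer, with median log2 intensities of 8.15 to 10.72 in the syngeneic samples. The medians were 14.48 to 15.35 for the called probes, and 14.82 and 14.97 for the probes 5. Whether the bright O probes also bind transcripts of other class I genes was not tested. Averaged over 5 probes, RT1-O2 had a mean of -0.071 ± 0.11 (SD, adjusted p = 0.1385) and RT1-O3 of -0.087 ± 0.10 (SD, adjusted p = 0.06188), so that neither gene was called. RT1-O3 was called without rat 1 (-0.10, adjusted p = 0.02552), and over all its 24 alternatives the adjusted p lay between 0.001711 and 0.2692.

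The 4 called O probes had opposite signs in the dye orientations. With the allogeneic sample in Cy5 the means were -0.63 and -0.50 for probes 2 and 4 of RT1-O2, and -0.56 and -0.52 for probes 3 and 4 of RT1-O3. With it in Cy3 they were 0.15 and 0.086 for RT1-O2, and 0.12 and 0.080 for RT1-O3. The negative means over both arrays of a rat thus came from the Cy5 orientation alone. As genes, RT1-O3 was -0.26 (adjusted p = 0.001711) in the Cy5 and 0.083 (adjusted p = 0.04782) in the Cy3 orientation, which was called in either direction. RT1-O2 was -0.21 (adjusted p = 0.005564) and 0.067 (adjusted p = 0.09243). The O probes also share 34 to 36 bases with probes for the class Ib genes RT1-CE12 and RT1-CE13.

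**Figure D3:**
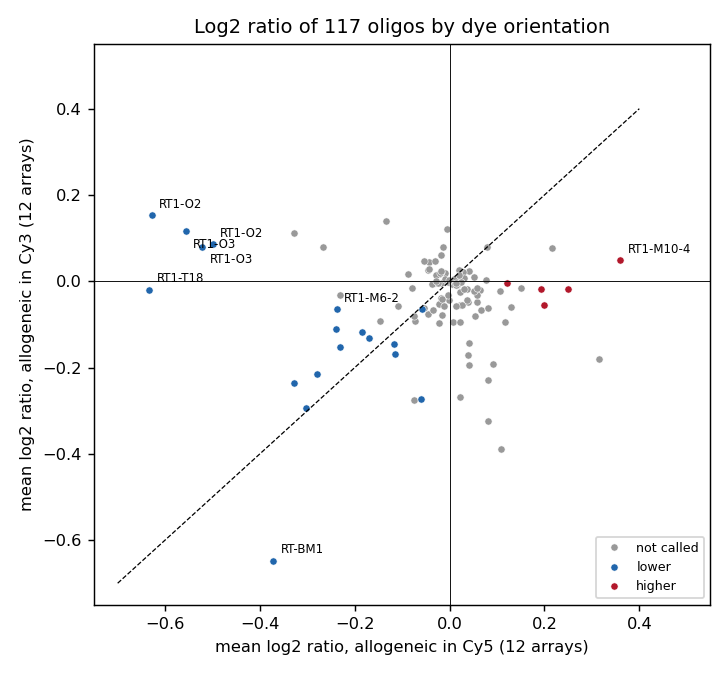
Mean log2-fold change (allogeneic over syngeneic) of the 117 class Ib probes over 12 arrays per orientation, with allogeneic RNA in Cy5 (horizontal axis) or in Cy3 (vertical axis), colored by the limma call on the mean of both. The dashed line marks equal values. The called O2 and O3 probes lie at -0.63 to -0.50 in Cy5 and above 0 in Cy3, whereas the RT-BM1 probe lies below 0 on both axes.

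The name RT1-O1 was in conflict between sources. All 5 probes listed as RT1-O1 carry in the files the RefSeq transcript NM_001001423, which RefSeq gives to the olfactory receptor gene Or1o2e. They were the 5 of 40 probes with an accession held by RefSeq whose symbol was not that of the listed gene, the other 35 being the same. Probe 4 shares 50 bases with the catalog probe for this olfactory receptor, as the capitals show.
RT1-O1 probe 4: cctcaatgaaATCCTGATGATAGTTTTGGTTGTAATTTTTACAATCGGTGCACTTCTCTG
Or11 catalog probe: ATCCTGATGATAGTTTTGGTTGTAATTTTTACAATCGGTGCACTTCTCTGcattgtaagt
The mean log2-fold changes of the listed RT1-O1 probes lay between -0.017 and 0.0048, and that of the catalog probe was 0.0061. The RefSeq transcript of RT1-O1, NM_001008856, stands on 5 probes that the study lists as RT1-CE13. Their means were 0.16, 0.18, -0.16, -0.19 and -0.16, of which the last 3 were called (adjusted p = 0.01926, 0.01495 and 0.03008). These 3 probes were at -0.37 to -0.34 in the Cy5 orientation and at -0.020 to 0.026 in the Cy3 orientation.

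RT1-T18, named after the mouse T18 gene, was measured by 2 catalog probes at chr20:2757832-2757891 and chr20:2754855-2754914 (rn3) that share no long run and gave different values.
RT1-T18 probe 1: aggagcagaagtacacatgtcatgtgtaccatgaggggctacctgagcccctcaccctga
RT1-T18 probe 2: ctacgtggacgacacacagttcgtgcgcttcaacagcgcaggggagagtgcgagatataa
Probe 1 had a mean of -0.047 ± 0.17 (SD, adjusted p = 0.5604). Probe 2 was lowest in rat 8 (-1.12), had a median of -0.29 and was highest in rat 6 (0.0069), with a mean of -0.33 ± 0.29 (SD, n = 12; adjusted p = 0.01181). For both probes rat 8 was far below the other rats (-0.55 for probe 1). With the probes averaged, RT1-T18 had a mean of -0.19 ± 0.23 (SD) and was not called (adjusted p = 0.06054). It was called without rat 8 (-0.13, adjusted p = 0.009224) and without rat 1 (-0.21, adjusted p = 0.0483). It was -0.36 with the allogeneic sample in Cy5 but -0.017 with it in Cy3, and the adjusted p ranged from 0.002251 to 0.8699 over its 24 alternatives.

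Genes of the M10 and M7 groups held all 5 probes called higher. These probes were dim, with median log2 intensities of 6.87 to 8.51 in the syngeneic samples. Their sizes depended on the processing, with means of 0.059 to 0.21 as reported and 0.12 to 0.41 with processed intensities. In RT1-M10-4, probe 4 was higher in 11 of 12 rats, from -0.013 (rat 2) over a median of 0.18 to 0.46 (rat 3). Its mean was 0.21 ± 0.15 (SD, n = 12; adjusted p = 0.005336), with 0.36 in the Cy5 and 0.050 in the Cy3 orientation. Probe 3 of the same gene was lower instead (-0.061, adjusted p = 0.03825), together with probes 1 and 2 (-0.043 and -0.051, not called), which overlap it. This call was also lost with slide as a block (adjusted p = 0.05594) and when any of 7 rats was left out, with an adjusted p between 0.0244 and 0.2296 over its 23 alternatives. The probes of RT1-M10-4 thus did not give a common direction, and the gene mean was 0.0034 ± 0.049 (SD).

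The RT1-M10-1 and RT1-M10-3 probes that were called are shown because they share 30 bases, in capitals.
RT1-M10-1 probe 2: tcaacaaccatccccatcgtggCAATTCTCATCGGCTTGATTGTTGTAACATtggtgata
RT1-M10-3 probe 2: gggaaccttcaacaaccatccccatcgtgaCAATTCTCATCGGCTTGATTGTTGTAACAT
Their means were 0.059 ± 0.053 (SD, adjusted p = 0.03693) and 0.071 ± 0.060 (SD, adjusted p = 0.02176), with 9 and 10 of 12 rats higher. The call of the RT1-M10-1 probe was lost with slide as a block (adjusted p = 0.06152) and when any of 7 rats was left out, and over its 23 alternatives the adjusted p lay between 0.005391 and 0.8822. They were at 0.12 and 0.20 in the Cy5 orientation and at -0.0044 and -0.056 in the Cy3 orientation. The other probes of both genes were between -0.027 and 0.023 and were not called, most of them dim. The files name the probes listed as RT1-M10-1 after RT1-M10-4, so that the assignment between these genes is uncertain as well. In RT1-M7, probe 2 (0.088 ± 0.097, SD; adjusted p = 0.04888) and probe 5 (0.12 ± 0.13, SD; adjusted p = 0.0418) were called, with 10 and 12 of 12 rats higher. The remaining 3 probes lay between -0.035 and 0.0019, and the called ones were at 0.19 and 0.25 in the Cy5 but both at -0.017 in the Cy3 orientation. Both calls were lost under the mixed-effects ANOVA of the methods (adjusted p = 0.05556 and 0.05393) and with slide as a block (0.07036 and 0.05625). Leaving out any of 9 rats ended the call of probe 2, and any of 6 rats that of probe 5. Over all 23 alternatives the adjusted p lay between 0.005137 and 0.6784 for probe 2 and between 0.0007196 and 0.7756 for probe 5.

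Of the M1 genes, 1 probe of 17 was called. Probe 3 of the pseudogene RT1-M1-1 was lower in 11 of 12 rats, from -0.44 over a median of -0.18 to 0.062. Its mean was -0.17 ± 0.14 (SD, n = 12; adjusted p = 0.01011), while the other 4 probes of the gene lay between -0.0035 and 0.025. The gene mean of RT1-M1-1 was -0.027 ± 0.043 (SD), and it was called only with the allogeneic sample in Cy3 (-0.060, adjusted p = 0.01807, the lowest of its 24 alternatives, with 0.9409 as the highest). The means of RT1-M1-2, RT1-M1-3, RT1-M1-4 and RT1-M1-5 lay between -0.014 and 0.030. RT1-M2, RT1-M5 and RT1-M10-2 had means between -0.017 and 0.0018, and of their 11 probes only probe 1 of RT1-M10-2 was detected on more than 2 arrays.

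RT1-M3-1 and RT1-M3-2 varied widely between rats around a mean that was not called. RT1-M3-1, which RefSeq lists as protein-coding, had a log2-fold change that was lowest in rat 9 (-0.60), had a median of -0.090 and was highest in rat 3 (0.42). Its 5 probes followed each other over the rats. The SD over rats was 0.27, the largest of the 30 genes after RT-BM1, around a mean of -0.10 that was not called (adjusted p = 0.3893). RT1-M3-2, a pseudogene whose 5 probes lie on 1 target, was likewise lowest in rat 9 (-0.36) and highest in rat 3 (0.33), with a mean of -0.041 ± 0.21 (SD, adjusted p = 0.6807). The catalog probe named RT1-M3 in the files, which shares 54 bases with probe 2 of RT1-M3-1, ranged from -0.70 to 0.39 with a mean of -0.13 ± 0.28 (SD, adjusted p = 0.3048).

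RT1-M3-1 also moved with the slide and the dye. The slide means were 0.080, -0.092 and -0.29. With the allogeneic sample in Cy5 its mean was 0.077, and in Cy3 it was -0.28, which was called (adjusted p = 0.01713, the lowest of its 24 alternatives, with 0.6261 as the highest). The RT1-M3 catalog probe showed the same pattern, with 0.089 in Cy5 and -0.34 in Cy3. By contrast RT1-M3-2 was at -0.024 and -0.058 in these orientations. RT1-M3-3, a pseudogene with 5 probes detected on 24 arrays, had a mean of 0.014 ± 0.033 (SD) and a range of -0.040 to 0.061, so that its rats were alike.

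**Figure D4:**
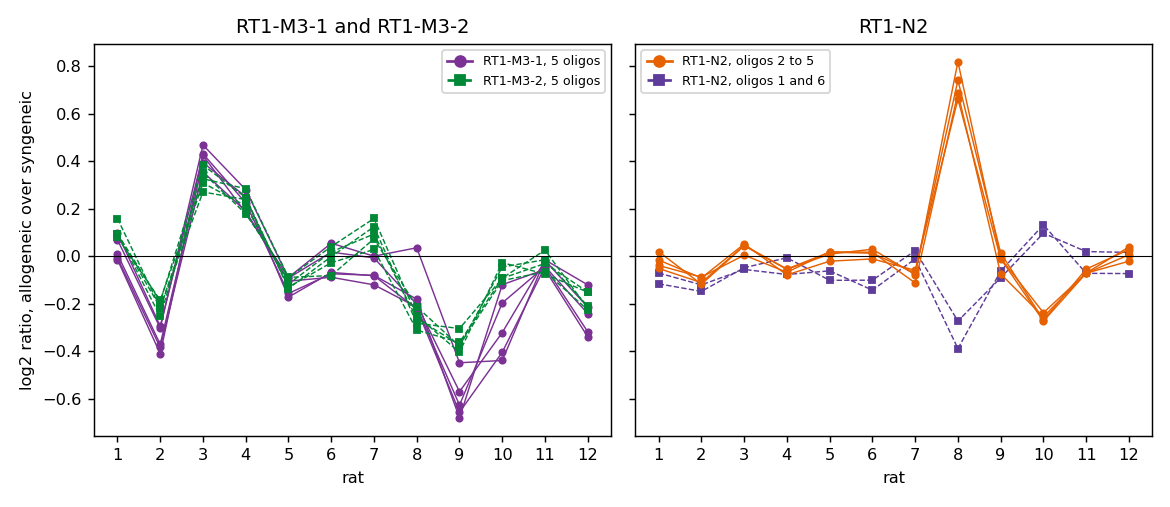
Log2-fold change (allogeneic over syngeneic) of each probe in each rat, for RT1-M3-1 and RT1-M3-2 (left) and RT1-N2 (right), with 1 line per probe. Rat 3 is highest and rat 9 lowest for the gene means of RT1-M3-1 (0.42 and -0.60), and RT1-N2 probes 2 to 5 part from probes 1 and 6 in rats 8 and 10, in opposite directions.

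The RT1-N genes depended on single rats. Of the 6 probes of RT1-N2, probes 2 to 5 overlap on 1 target and were at 0.66 to 0.82 in rat 8, with at most 0.052 in the other rats. Probes 1 and 6 were at -0.39 and -0.27 in the same rat. In rat 10 the order was the other way, with -0.27 to -0.24 for probes 2 to 5 and 0.13 and 0.097 for probes 1 and 6. Probe 6 is a catalog probe that the files name RT1-N1. The mean of RT1-N2 was -0.014 ± 0.13 (SD, adjusted p = 0.8446), and without rat 8 it was -0.049 and called (adjusted p = 0.04189). The single RT1-N3 probe (chr20:2810251-2810310, rn3) was lower in 11 of 12 rats, from -0.54 in rat 8 over a median of -0.12 to 0.29 in rat 10. Its mean of -0.12 ± 0.18 (SD) was not called (adjusted p = 0.1356), but it was without rat 10 (-0.16, adjusted p = 0.01998) and with rat 10 represented by its second array alone (-0.14, adjusted p = 0.03476). Over its 24 alternatives the adjusted p ranged from 0.01998 to 0.2485.

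Among the remaining M genes, RT1-M8 had a single probe with a wide spread over rats. Probe 5 of this pseudogene ranged from -0.58 (rat 2) to 1.01 (rat 8) with a mean of 0.068 ± 0.46 (SD, adjusted p = 0.7654), which was -0.018 without rat 8. The other RT1-M8 probes had SDs of 0.039 to 0.15. RT1-M4 had a mean of -0.038 ± 0.076 (SD, adjusted p = 0.3027), and its probe 4 was at -0.73 in rat 8 and between -0.24 and 0.027 in the others. The mean of this probe was -0.13, and -0.078 without rat 8 (adjusted p = 0.05738). No probe of RT1-M4 or RT1-M8 was called.

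The class Ia genes RT1-A1 to RT1-A3 and the class Ib genes RT1-CE1 to RT1-CE16 were the class I genes most like the telomeric ones on this array. Of these 19 genes, 15 were lower and 0 higher (78.9%), against 7.54% lower among all genes. Their median log2-fold change was -0.23, with a range from -1.75 to -0.033. The telomeric genes had 5 of 30 lower and a median of -0.015, and the difference between the groups was not tested. With the allogeneic sample in Cy3 alone, 7 of the 19 genes were lower and 1 was higher, when 13.7% of all genes were lower.

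Of 22 listed genes for class I peptide loading and class I receptors, 19 were measured. Of these, 7 (36.8%) were lower and 0 higher, against 7.54% lower among all genes. The 7 lower genes were the immunoproteasome subunits Psmb8 (-0.42), Psmb10 (-0.33) and Psmb9 (-0.19), the peptide transporter subunit Tap2 (-0.21), the chaperone calreticulin (Calr, -0.14) and the T cell co-receptor chains Cd8a (-0.32) and Cd8b (-0.49). Without rat 8, 11 of the 19 were lower, when of all genes 24.1% changed and 11.3% were lower. B2m, the common light chain, had a mean of 0.0025 ± 0.55 (SD, adjusted p = 0.9936), with 10 of 12 rats lower. The receptor partners of the Qa-1 homologue were not called, with -0.086 ± 0.15 (SD) for Klrd1 (CD94) and 0.044, 0.027 and 0.076 for Klrc1, Klrc2 and Klrc3 of the NKG2 family. Klrc1 and Klrc3 were detected on at most 8 arrays in a channel.

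Markers of leukocytes moved in the same samples. For the counts below, 16.2% of all genes on the array were called and 7.54% were lower. Of the T cell markers, 4 of 8 measured were lower (Cd2, Cd5, Cd8a and Cd8b), and their summed intensity was 2030 to 4510 in the allogeneic and 2530 to 6540 in the syngeneic samples, lower in 10 of 12 rats. Of the NK cell markers, 3 of 7 were lower (Klrb1a, Nkg7 and Gzmb), with sums of 938 to 1870 and 1010 to 2030, lower in 12 rats. Of 3 macrophage markers, Csf1r and Itgam were lower, with sums of 2820 to 11600 and 3700 to 12600, lower in 9 rats. None of 3 B cell markers was called (0 of 3), with sums of 334 to 1790 and 345 to 2040. Col1a2 of the 2 fibroblast markers was higher, with sums of 5840 to 36400 and 3810 to 23500, lower in 1 rat. Every one of these markers with a probe was detected on at least 12 arrays in a channel. What part the cell composition had in the lower class Ib values was not tested.

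The promoters of 17 of the listed genes (RT1-S2 included) were available from RefSeq (build GRCr8), as 250 bases before and 50 bases after the start. The ISRE motif (GAAA, any 2 bases, GAAA), searched on both strands, is known from promoters that respond to interferon. It was found in 3 of them, RT-BM1, RT1-N3 and RT1-S2, and in 3.9% of all 33469 promoters. The match before RT-BM1 begins 112 bases before the start, and it is printed with 10 bases on each side, a stretch at chr20:2675406-2675435 on the plus strand. It is shown because RT-BM1 had the lowest value of the family, with the motif in capitals as its reverse complement.
RT-BM1 promoter: ctcctgctgcTTTCTCTTTCataaagacac
The GAS motif TTCNNNGAA was found in 2 of the 17 promoters, those of RT1-M1-5 and RT1-M3-1, and in 8.9% of all promoters. CCAAT was found in 10 of the 17, among them RT-BM1, RT1-T24-1 and RT1-T24-3, and in 37.5% of all promoters. A match is a run of letters and not a measured binding site.

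**Figure D5:**
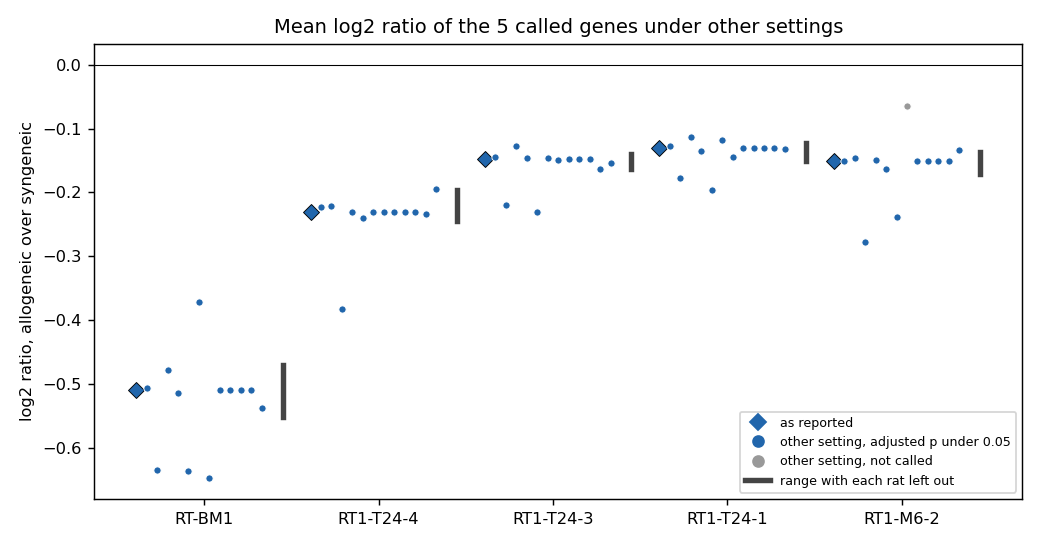
Mean log2-fold change (allogeneic over syngeneic) of the 5 called class Ib genes as reported (diamond), under each other setting (circle, gray where not called), and the range with each rat left out in turn (bar). All values lie below 0. The gray circle is RT1-M6-2 with the allogeneic sample in Cy3 alone (-0.065).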

How the data were processed

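The 12 rats, their paired explants and the dyes of the 24 arrays follow the sample labels, which assign every array. The authors deposited 1 scanner file per array, with the intensity of each spot and of its background in Cy3 and Cy5 extracted by Feature Extraction 9.5.1.1 (grid build rn3). The log2 ratios of a series table deposited with them were an alternative, whose treatment of background is not stated and whose direction was read from its positive correlation (0.704 to 0.954) with the turned ratios of processed intensities. Its columns had medians between -0.027 and 0.022.

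Background was corrected by normexp (offset 50), and ratios were normalized by loess within each array (limma 3.58.1, R 4.3.3). Control and outlier spots were dropped but not saturated ones, of which an array had 0 to 6. After turning the swapped arrays, the mean was taken over spots and then over both arrays of a rat, giving 12 replicates. The comparison lies within each array, so every fit is paired by rat. Probes (8453) and genes (7250, mean over probes) were tested by limma against 0 with Benjamini-Hochberg adjustment at 0.05. Intensities per channel were scaled between arrays by Aquantile. Probes were named by the study's gene lists, otherwise through RefSeq accessions (4322 probes) or by the file's name (3395 probes). The number of arrays limits the precision.

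The class Ib genes and all lists were chosen with earlier results of these data known. All class Ib genes are named, with full values where the gene or any of its probes was called. Alternatives were no background correction, processed intensities, median centering, outlier spots kept, dim probes left out, each dye orientation alone, slide as a block, the mixed-effects ANOVA of the methods, the series table, the median over probes and leaving out each rat. Taking rat 10 by its second array alone was added after seeing the data. The fits were tested on simulated data.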

Additional observations from a re-analysis of the deposited data

How the results depend on the processing

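No called gene changed its sign under any alternative. RT1-O3, not called as reported (-0.087), was called lower in Cy5 alone (-0.26) and higher in Cy3 alone (0.083), and RT1-O2 (-0.21 and 0.067) and RT1-M3-1 (0.077 and -0.28) also had opposite signs in the 2 orientations. Of the 5 called genes, RT-BM1, RT1-T24-4, RT1-T24-3 and RT1-T24-1 stayed lower and called under all 24 alternatives, and RT1-M6-2 under 23. With the allogeneic sample in Cy5 alone 10 class Ib genes were called (8 lower, 2 higher), and in Cy3 alone 8 (7 lower, 1 higher), when 30.2% and 28.6% of all genes were called. In Cy3 alone 8 class Ia and RT1-CE genes were called (7 lower, 1 higher). The direction of called class Ib probes was 20 lower and 13 higher in Cy5 alone (33 probes) and 27 lower and 2 higher in Cy3 alone (29 probes), against 18 and 5 as reported. Of all probes 31.5% and 29.6% were called in these settings, 14.3% and 14.6% lower. Under the remaining settings with all rats 19 to 25 probes and 5 to 6 genes were called. Of all probes 14.3% to 19.5%, and of all genes 13.1% to 18.3%, were called in these settings. The cause was not tested. Leaving out each rat in turn gave 19 to 28 class Ib probes, 5 to 7 class Ib genes, 12 to 16 class Ia and RT1-CE genes and 5 to 11 class I loading genes, the last number without rat 8. Of all probes 13.7% (without rat 9) to 24.7% (without rat 8) were called then, and of all genes 12.8% to 24.1%. Slide as a block left 5 class Ib genes called. Every test is paired by rat, since both explants of a rat lie on the same array and their ratio was tested against 0. Signal over background limited 27 probes, detected on fewer than 3 arrays in both channels.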
